A study of Mus musculus with 6 samples.

Results

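The heat shock chaperone genes described here were 10 genes among the 12626 genes of the series, taken by their names: *Hspa1a*, *Hspa1b*, *Hspa8*, *Hsph1*, *Dnajb1*, *Hsp90aa1*, *Hspb1*, *Hspd1*, *Hspe1* and *Hsf1*. All 10 were found, each as 1 row in every library. They were selected on their measured values: the RNA levels of all days were in view, above all the difference between the 2 libraries of D13. That difference is given below as a description, without a test, and the adjusted p-values of the day comparisons describe the fit and are not independent of the choice for any of the 10. The cells were wild-type J1 mouse embryonic stem (ES) cells, a single cell line, grown without feeders on gelatin and with leukemia inhibitory factor throughout. D0 cells were in serum medium. D6 and D13 cells had been moved for 6 and 13 days to 2i+vitC, a serum-free medium with a GSK3 inhibitor, a MEK inhibitor and vitamin C, in which DNA methylation is lost. Each day had 2 biological replicates. Serum cells were passaged with TrypLE and 2i+vitC cells with accutase, so medium and dissociation enzyme cannot be told apart between D0 and the later days.

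Chaperones bind unfolded proteins and help them to fold. The HSP70 proteins (*Hspa8*, made at all times, and *Hspa1a* and *Hspa1b*, the classical stress-inducible pair) work in cycles driven by ATP, which J-domain (HSP40) partners such as *Dnajb1* start and nucleotide exchange factors such as *Hsph1* (HSP110) reset. *Hsp90aa1* encodes the inducible cytosolic HSP90, *Hspb1* the small heat shock protein HSP27, and *Hspd1* and *Hspe1* the barrel (HSP60) and lid (HSP10) of the mitochondrial chaperonin. HSF1 is the transcription factor that, after heat or other protein stress, binds heat shock elements, arrays of the unit GAA in alternating orientation, and turns such genes on. It is itself regulated mainly as a protein.

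Promoter sequence bears on these genes because they share this transcription factor. RefSeq promoters (GRCm38.p6, 250 bases before to 50 after the start site) were matched by symbol for 7 of the 10 members, as 10 promoters. *Hspa8*, *Hsp90aa1* and *Hsf1* had no entry. Each promoter was searched for a pair of units (GAANNTTC or TTCNNGAA, each of which reads the same on the other strand) and for 3 units (GAANNTTCNNGAA or its reverse complement TTCNNGAANNTTC, which contain the pairs). Of 32851 promoters of this length, 15.1% held a pair and 0.603% held 3 units. A pair was present for 6 of the 7 members, and 3 units for *Hspd1*, *Hspe1* and *Hsph1*. Members are counted here as genes, some with more than 1 promoter, and *Hspd1* and *Hspe1* share 1 element. These counts are therefore not directly comparable with the shares of promoters. *Dnajb1* had no match in this window. The sequences below run 5′ to 3′ along each gene's strand, with the matched units in capitals, and show the stress-inducible HSP70 promoter, the element shared by the divergent chaperonin genes, and those of *Hspb1* and *Hsph1*.
Hspa1a, 200 bases before the start site, GRCm38 chr17:34972157-34972356, minus strand: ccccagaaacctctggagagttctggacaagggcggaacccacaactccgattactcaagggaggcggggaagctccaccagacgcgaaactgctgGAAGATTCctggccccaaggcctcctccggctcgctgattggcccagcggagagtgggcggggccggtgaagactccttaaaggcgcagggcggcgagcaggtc
Hspe1 and Hspd1, 30 bases around the shared element, GRCm38 chr1:55088053-55088082, plus strand: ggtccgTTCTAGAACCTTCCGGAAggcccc
Hspb1, 60 bases around the matched pairs upstream of the start site, GRCm38 chr5:135887789-135887848, plus strand: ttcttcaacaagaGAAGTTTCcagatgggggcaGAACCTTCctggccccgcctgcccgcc
Hsph1, 30 bases around the matched units downstream of the start site, GRCm38 chr5:149636287-149636316, minus strand: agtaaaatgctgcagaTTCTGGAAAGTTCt
The *Hspa1b* promoter was the same as that of *Hspa1a* at 199 of these 200 bases, and both held the pair at -104 to -97 from the start site. In the chaperonin element the units lay at -89 to -72 from the *Hspe1* start and at -144 to -127 from the *Hspd1* start on the other strand. The pairs of *Hspb1* lay at -117 to -110 and -97 to -90, and the 3 units of *Hsph1* at 37 to 49 from the start site of the promoter shown. These matches are descriptions of sequence, not measurements of binding.

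*Hspa1a* (chr17:34969190-34972156) and *Hspa1b* (chr17:34956436-34959238) each consist of a single exon on the minus strand. Of the 100-base windows of the *Hspa1a* transcript, 47.1% also occurred in that of *Hspa1b*, and 49.9% the other way round, so how reads of the shared parts were divided, or lost, between the pair is uncertain. *Hspd1* (chr1:55077835-55088243, minus strand) and *Hspe1* (chr1:55088132-55091307, plus strand) overlap by 112 bases at their starts in the gene annotation. The shared promoter element lies upstream of the RefSeq *Hspd1* start used above, but inside this longer *Hspd1* gene model. *Hspd1* has 5 named pseudogenes and *Hspe1* 6 in the annotation, which could share reads. *Hspa1a* overlaps a gene model on the opposite strand over 2225 bases, and the strand setting of the authors' counting is not given in the sources used here. The others were *Hsph1* (chr5:149614287-149636376, minus strand, 18 exons), *Dnajb1* (chr8:83608193-83612653, plus strand), *Hspb1* (chr5:135887919-135889563, plus strand), *Hsp90aa1* (chr12:110690605-110702728, minus strand), *Hspa8* (chr9:40800984-40810087, plus strand) and *Hsf1* (chr15:76477422-76501913, plus strand).

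The 6 libraries held 73230745 to 83688345 reads on genes, and 3 reads corresponded to 0.0344 to 0.042 CPM (reads scaled to the size of the library). Values are log2 CPM, and because these are bulk samples, fewer cells expressing a gene and less RNA per cell cannot be told apart. Markers of pluripotent cells were present at all days, with *Pou5f1* between 9.46 and 10.19 log2 CPM. The log2 of the summed CPM of the 7 pluripotency markers was 11.94 and 11.97 in the D13 replicates. That of 4 neural markers was 6.62 and 6.67, and that of 4 primitive endoderm markers 6.64 and 6.99. Single genes made up most of these sums: *Nes* (6.19 and 6.15) of the neural and *Lama1* (6.58 and 6.94) of the endoderm sum. Single markers differed in both directions. D13 replicate 1 was higher in 4 of the 7 pluripotency markers, by 0.72 for *Pou5f1*, while *Tfcp2l1* differed by -0.72. It was higher in 2 of the 4 neural markers, while *Neurod1* differed by -1.90.

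At D0 the order of the members per kilobase of transcript was *Hsp90aa1* (10.28 log2 CPM per kb), *Hspa8* (10.03), *Hspd1* (9.00), *Hspe1* (8.66), *Hspb1* (7.03), *Hsph1* (6.30), *Dnajb1* (5.01), *Hsf1* (4.34), *Hspa1b* (2.14) and *Hspa1a* (-0.00), each the mean of 2 libraries. The 10 genes took 0.734% to 1.08% of all reads on genes, and 87.4% to 91.6% of those reads fell on *Hsp90aa1*, *Hspa8* and *Hspd1*. The inducible HSP70 pair had the fewest reads of the members in every library but D13 replicate 1 (where *Hsf1* had 2552), with 38 to 2614 for *Hspa1a* and 249 to 3295 for *Hspa1b*. Counting error was largest for the pair at D6.

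The widest range over the 6 libraries was that of the inducible HSP70 pair. *Hspa1a* was at 1.63 and 1.50 log2 CPM in replicates 1 and 2 of D0, -1.03 and -0.47 in those of D6, and 5.19 and 2.49 in those of D13. All values below give replicate 1 first. Its lowest values were at D6 and its highest at D13, with no overlap between the days. *Hspa1b*, its near-identical neighbour, was at 3.68 and 3.58 log2 CPM (D0), 1.66 and 2.01 (D6) and 5.53 and 3.15 (D13). It was also lowest at D6, but its second D13 replicate lay below both D0 libraries. *Hspa1a* took 19.5% and 19.1% of the pair's reads (D0), 13.2% and 15.1% (D6) and 44.2% and 38.7% (D13), so its share was higher in both D13 libraries than in the other four. This share was not tested, and it rests on reads counted outside or within the parts common to both transcripts.

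**Figure D1:**
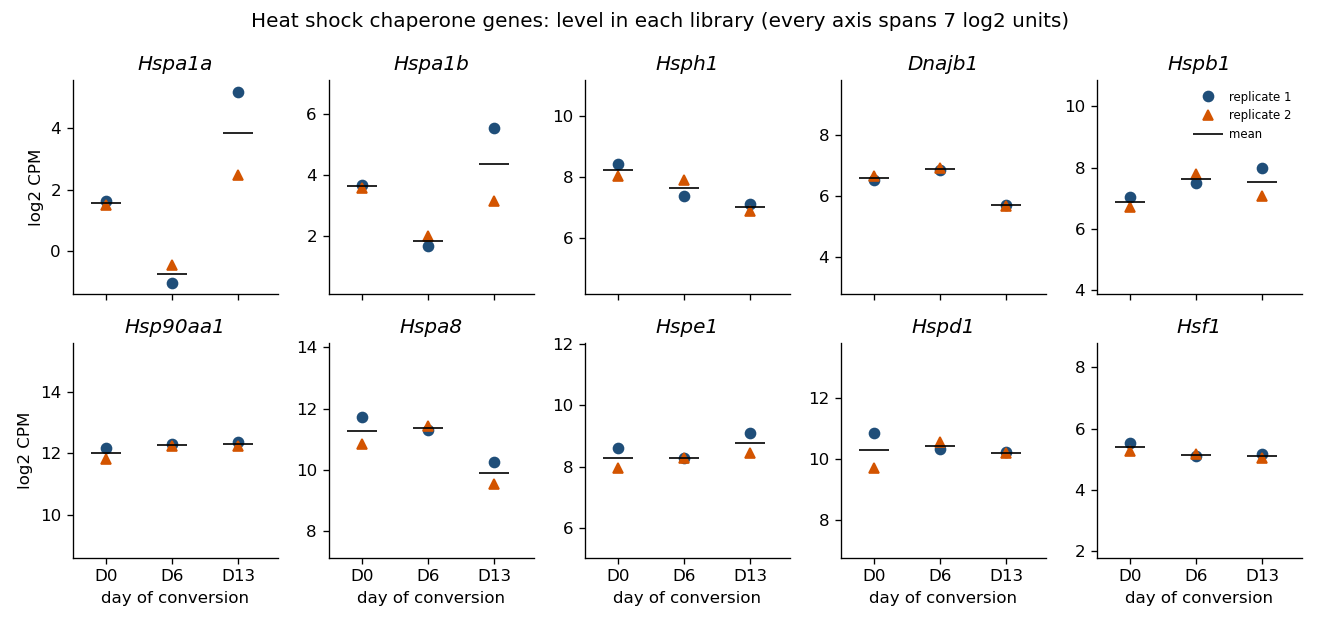
Level of each member in the 6 libraries, as log2 CPM (vertical axis) against the day of conversion (horizontal axis). Circles are replicate 1, triangles replicate 2 and bars the mean of both. *Hspa1a* and *Hspa1b* dip at D6 and differ widely between the D13 replicates, while *Dnajb1* and *Hspa8* are lowest at D13.

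The remaining members of the HSP70 cycle were lowest at D13. *Dnajb1*, the J-domain partner, was at 6.52 and 6.66 log2 CPM (D0), 6.85 and 6.91 (D6) and 5.72 and 5.66 (D13). Its D13 libraries lay below all others and differed little from each other. *Hspa8*, the constitutive HSP70, was at 11.74 and 10.84 (D0), 11.32 and 11.43 (D6) and 10.26 and 9.54 (D13). Both D13 libraries were below the other four, though the D0 replicates were 0.90 apart. *Hsph1*, the exchange factor, was at 8.43 and 8.02 (D0), 7.37 and 7.88 (D6) and 7.11 and 6.89 (D13), so the days followed each other downwards without overlap.

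*Hsp90aa1* had the highest level and a narrow range, at 12.18 and 11.82 log2 CPM (D0), 12.30 and 12.23 (D6) and 12.36 and 12.22 (D13). The small heat shock protein gene *Hspb1* was at 7.04 and 6.72 (D0), 7.50 and 7.78 (D6) and 8.00 and 7.09 (D13). Its D6 libraries were above both D0 libraries, and D13 spanned the D6 values. *Hspe1* was at 8.62 and 7.96 (D0), 8.27 and 8.28 (D6) and 9.10 and 8.43 (D13), with D0 and D13 overlapping. *Hspd1*, which shares its promoter region with *Hspe1*, was at 10.85 and 9.70 (D0), 10.32 and 10.54 (D6) and 10.23 and 10.19 (D13). Its D0 replicates enclosed all the other values. *Hsf1* was at 5.53 and 5.27 (D0), 5.11 and 5.18 (D6) and 5.16 and 5.04 (D13), with D6 and D13 overlapping below D0.

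The question of the day comparisons was how expression changed as cells moved from serum to 2i+vitC. Each was tested with limma over all 12928 genes and transposon families, with Benjamini-Hochberg adjustment, and a gene was called at a change of more than 4-fold and an adjusted p under 0.05. Genes past the adjusted p alone were also counted. From D0 to D6 none of the 10 members passed either rule in limma (0 of 10), with 4 of 10 at an unadjusted p under 0.05, and limma with voom precision weights also gave 0 of 10. Of all rows, 13.7% passed the adjusted p upwards and 10.2% downwards, and 5.95% and 3.81% were called. *Hspa1a* was 2.32 log2 units lower at D6 in the fit (log2 fold change -2.32 ± 0.74, SE, adjusted p = 0.053) and *Hspa1b* 1.79 lower (-1.79 ± 0.63, adjusted p = 0.074). The spread in this fit includes the D13 libraries, in which these genes differed most. When the limma fit held the D0 and D6 libraries alone, the standard errors were 0.40 and 0.27 and the adjusted p 0.0098 and 0.0060, and *Hspb1* (log2 fold change 0.76) passed as well, with an adjusted p of 0.032. In this D0 and D6 fit 3 of 10 members passed the adjusted p, where 27.7% of all rows did, and 1 of 10 (*Hspa1a*) was called, where 9.6% of all rows were.

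From D6 to D13, *Hspa1a* rose by 4.59 ± 0.74 on the log2 scale (SE, limma adjusted p = 0.023) and was called. *Dnajb1* fell by 1.19 on the log2 scale (SE 0.20, limma adjusted p = 0.024). *Hspa1b* (2.50 ± 0.63, limma adjusted p = 0.058) and *Hspa8* (-1.48 ± 0.37, limma adjusted p = 0.057) did not pass. The change of *Hspa1b* was 1.31 without D13 replicate 1 and 3.69 without D13 replicate 2. That of *Hspa8* was -1.53 without D6 replicate 1 and -1.42 without D6 replicate 2. It was -1.84 without D13 replicate 1 and -1.12 without D13 replicate 2. Thus 1 of 10 members passed upwards and 1 downwards, where 1.39% of all rows passed upwards and 2.78% downwards. By the 4-fold rule 1 of 10 was called upwards, against 0.379% of all rows upwards and 0.719% downwards. Without D13 replicate 1, the change of *Hspa1a* was 3.24 with a limma adjusted p of 0.10, and no row of the whole table passed in that fit (2312 at an unadjusted p under 0.05). Without D6 replicate 1, D6 replicate 2 or D13 replicate 1, the log2 fold change of *Dnajb1* was -1.22 to -1.16. It did not pass in these fits, each of which held a single library of 1 of the days compared and so has less power.

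Between D0 and D13, 3 members fell and 1 rose. *Hsph1* fell by 1.23 on the log2 scale (SE 0.25, limma adjusted p = 0.0053), *Dnajb1* fell by 0.90 (SE 0.20, limma adjusted p = 0.0071) and *Hspa8* fell by 1.38 (SE 0.37, limma adjusted p = 0.016). *Hspa1a* rose by 2.28 on the log2 scale (SE 0.74, limma adjusted p = 0.037) and was called. These are 1 of 10 members upwards and 3 of 10 downwards, where 20.6% of all rows passed upwards and 21.5% downwards. By the 4-fold rule 1 of 10 was called upwards, against 7.39% of all rows upwards and 5.9% downwards. *Hsph1* and *Dnajb1* passed in each of the 6 fits that left out 1 library. *Hspa8* did not pass without D0 replicate 1 (-0.93, limma adjusted p = 0.079) or without D13 replicate 2 (-1.02, limma adjusted p = 0.085). *Hspa1a* did not pass without D0 replicate 1, D0 replicate 2 or D13 replicate 1, and its change without D13 replicate 1 was 0.92. *Hspa1b*, at 0.71 ± 0.63, turned to -0.48 without D13 replicate 1 and to 1.90 without D13 replicate 2, so its change depended on which D13 library was kept.

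**Figure D2:**
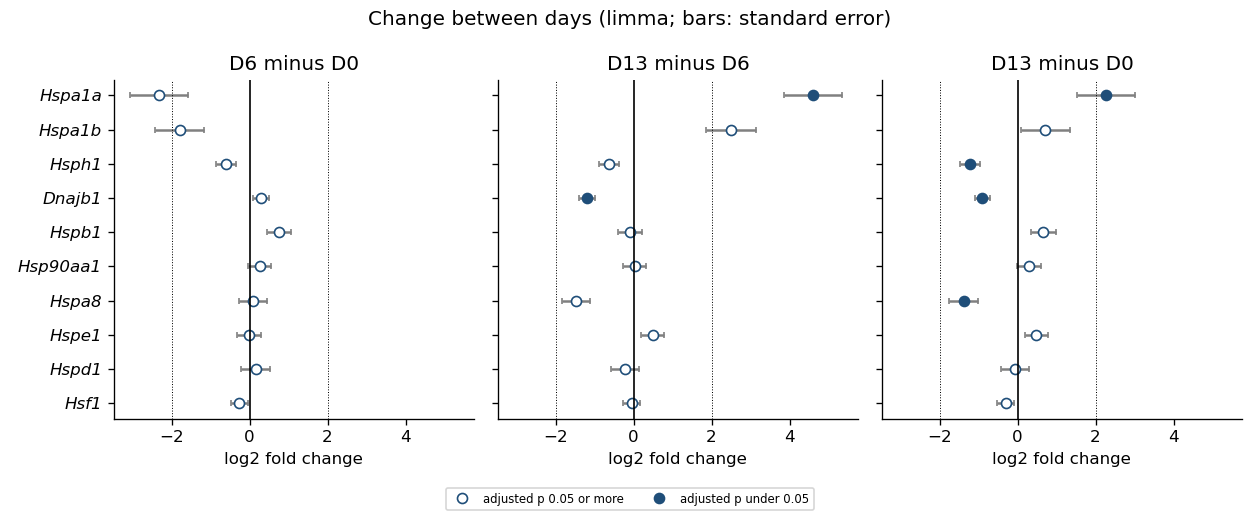
Log2 fold change (horizontal axes) of each member between days, from limma over all 6 libraries; bars are standard errors, filled points have an adjusted p under 0.05, and dotted lines mark 4-fold. *Hspa1a* stands at -2.32, 4.59 and 2.28 in the 3 panels, and *Hsph1*, *Dnajb1* and *Hspa8* are filled on the negative side from D0 to D13.

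*Hspb1*, *Hsp90aa1*, *Hspe1*, *Hspd1* and *Hsf1* passed in none of the 3 comparisons. Their log2 fold changes ranged from -0.30 (*Hsf1*, D0 to D13) to 0.76 (*Hspb1*, D0 to D6), with standard errors of 0.22 to 0.36.

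The D13 replicates differed most in the inducible HSP70 genes. In CPM, *Hspa1a* was at 36.6 in replicate 1 and 5.62 in replicate 2, and *Hspa1b* at 46.1 and 8.88. On the log2 scale replicate 1 was higher by 2.70 for *Hspa1a* and by 2.38 for *Hspa1b*. Of the 12626 genes, 31 had a larger absolute difference than *Hspa1a* and 48 than *Hspa1b*. Both D13 libraries were nevertheless above both D6 libraries for each of the pair. At D0 the replicates differed by 0.14 for *Hspa1a* and 0.10 for *Hspa1b*, and at D6 replicate 1 was the lower one, by -0.57 and -0.35.

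Replicate 1 of D13 was higher for all 10 members, where 50.6% of all genes were higher in it. For 8 of the 10 the difference was under 2-fold, and for 2 of 10 it was over 2-fold, where 7.77% of all genes were. *Hspb1* differed by 0.92, *Hspa8* by 0.72 and *Hspe1* by 0.67, while *Hsph1* (0.22), *Hsp90aa1* (0.14), *Hsf1* (0.12), *Dnajb1* (0.06) and *Hspd1* (0.04) differed less. Between 69.3% and 93.9% of all genes differed more than each of these last 5. The classical partners of the inducible HSP70s, *Dnajb1* and *Hsph1*, therefore stood at nearly the same level in both libraries while *Hspa1a* and *Hspa1b* did not. At D0, 9 of 10 members were also higher in replicate 1, where 45.4% of all genes were, by up to 1.15 for *Hspd1* and 0.90 for *Hspa8*. At D6, 1 of 10 was, where 46.9% of all genes were. The median absolute difference of all genes at D6 was 0.145, against 0.344 at D0 and 0.378 at D13.

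**Figure D3:**
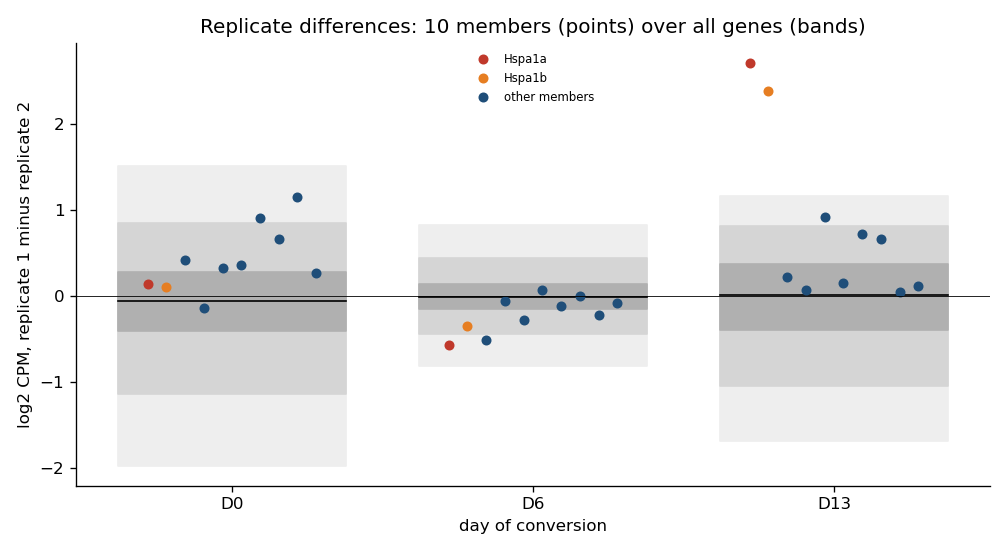
Replicate 1 minus replicate 2 in log2 CPM (vertical axis) at each day for the 10 members (points); grey bands hold the middle 50%, 90% and 98% of all 12626 genes, and the line is their median. At D13 *Hspa1a* and *Hspa1b* lie above all bands and the other 8 members within them.

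Transcript length moved with the D13 difference. Over the 11479 genes (90.9%) matched to the annotation, the difference between the D13 replicates had a Spearman correlation of -0.64 with the length of the principal transcript and of 0.36 with its GC content; these are correlations across genes, which share both libraries and are not independent replicates. At D0 the correlation with length was -0.21 and at D6 -0.21. The median gene in the shortest decile was higher in D13 replicate 1 by 0.58, and that of the longest decile by -0.68. *Hspe1* (774 bases) and *Hspb1* (903 bases) belonged to the shortest decile, and stood 0.09 and 0.34 above its median. *Hspa1a* (2967 bases) and *Hspa1b* (2803 bases) belonged to a middle decile (the fifth), whose median was 0.02, and stood 2.69 and 2.36 above it. No other gene of the 1149 in that decile exceeded *Hspa1a*. The inducible pair also lay in the 2 highest deciles of GC content, at 58.1% and 58.9%, where the medians were 0.24 and 0.33. *Hspd1* (2423 bases) and *Hsf1* (2084 bases) stood -0.10 and -0.14 from the medians of their length deciles. The part of RNA integrity or library preparation in these differences was not tested.

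**Figure D4:**
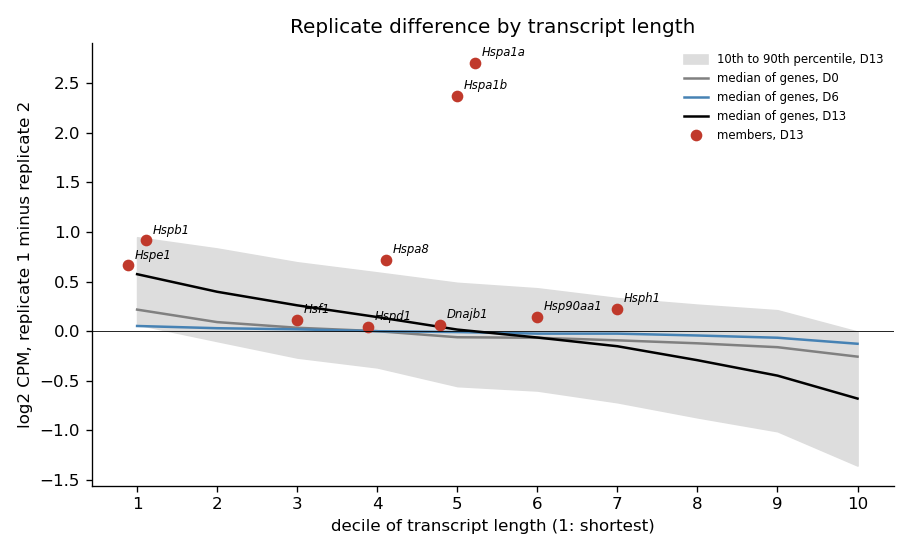
Replicate 1 minus replicate 2 in log2 CPM (vertical axis) over deciles of principal transcript length (horizontal axis, shortest first). Lines are medians of genes at each day, the grey band the 10th to 90th percentile at D13, and points the 10 members at D13; *Hspa1a* and *Hspa1b* lie 2.69 and 2.36 above the median of their decile, and *Hspe1* 0.09 above its own.

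The genes with the largest D13 differences outside the members were named by a rule (at least 50 reads in the higher library). Higher in replicate 1 were *AY761184* (2.59), *Lars2* (2.37), *Cdx1* (2.20), *Penk* (2.19), *Rn45s* (2.05), *Bglap3* (2.01), *Akr1c18* (1.91), *Nrtn* (1.82), *2200002D01Rik* (1.79) and *Tmem238* (1.78). *Rn45s* is the ribosomal RNA precursor, and stood at 12.45 and 9.33 log2 CPM (D0), 10.10 and 9.55 (D6) and 12.24 and 10.18 (D13); it was high in the same D13 library as *Hspa1a*, and also in D0 replicate 1, where *Hspa1a* was not. *Lars2* was at 10.12 and 7.84, 8.11 and 7.78, and 10.36 and 7.99, and its highest libraries were also replicate 1 of D13 and of D0. Higher in replicate 2, with differences of -4.07 to -3.22, were *Zbed6*, *Shroom4*, *Lmbrd2*, *Uprt*, *Uhmk1*, *Lrrc8b*, *Mib1*, *Brwd3*, *D830031N03Rik* and *Klhl11*. None of these genes is on a chaperone list, but those lists hold only 78 genes besides the members, so this absence carries little information.

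**Figure D5:**
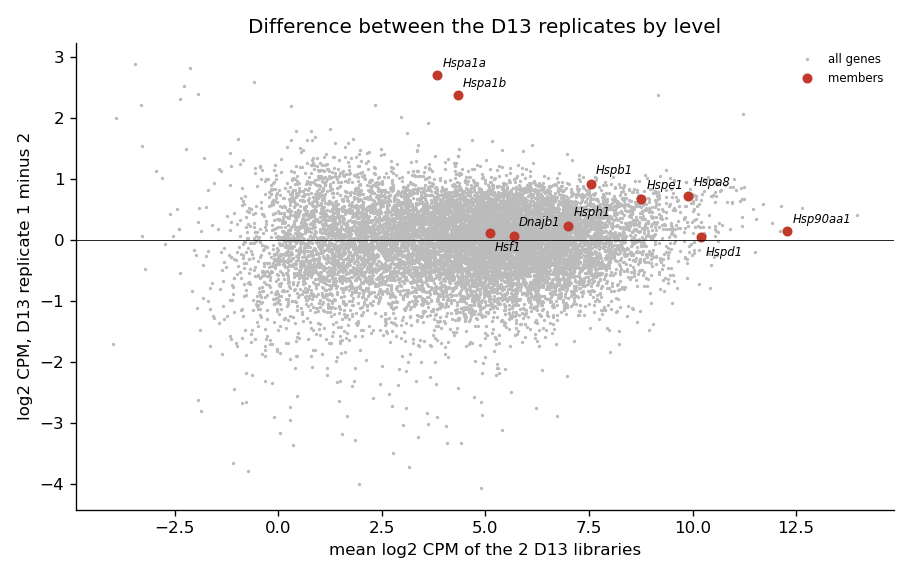
D13 replicate 1 minus replicate 2 in log2 CPM (vertical axis) against the mean log2 CPM of both libraries (horizontal axis) for all genes (grey) and the members (red). *Hspa1a* (2.70) and *Hspa1b* (2.38) lie at the upper edge of the cloud, and the other members between 0.04 and 0.92.

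Over the 6 libraries the members did not follow 1 pattern. The Pearson correlation, given as a description over 6 libraries that include the 3 days, was 0.96 for *Hspa1a* with *Hspa1b*, 0.86 for *Dnajb1* with *Hspa8* and 0.82 for *Hsph1* with *Hspa8*, but -0.86 for *Hspa1a* with *Dnajb1*. *Hspd1* and *Hspe1*, which start from the same region, had 0.40. The reads of *Hspd1* made up 82.5% and 76.9% of that pair (D0), 80.5% and 82.8% (D6) and 68.6% and 77.1% (D13). The 10 other genes most like the mean pattern of the members, among 6851 compared, were *Rln3* (r = 0.98), *Nrtn* (0.96), *Rpl34* (0.95), *Arhgdig* (0.95), *Ppp1r1a* (0.93), *Mbd2* (0.93), *Tspan4* (0.93), *Lars2* (0.93), *Ccdc85b* (0.93) and *Mif* (0.92). No chaperone outside the members was among them, but with 78 such genes among 12626 this absence carries little information.

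Of 78 other chaperone and co-chaperone genes measured (HSP70 relatives, J-domain proteins, exchange factors, HSP90 family and co-chaperones, small heat shock proteins, TRiC and prefoldin), 3 passed the adjusted p upwards and 3 downwards from D0 to D6, 1 upwards and 2 downwards from D6 to D13, and 9 in each direction from D0 to D13. These are 3.85% and 3.85%, 1.28% and 2.56%, and 11.5% and 11.5% of the 78. From D0 to D6 and from D0 to D13 these shares were below those of all rows given above. From D6 to D13, with 1 and 2 genes, they were close to the 1.39% and 2.78% of all rows. The median log2 fold changes of the 78 were -0.03, 0.11 and 0.07, against -0.01, -0.02 and -0.02 over all rows. The D13 replicates differed by more than 2-fold in 0 of the 78, by description, where 7.77% of all genes did; their range was -0.89 (*Bag4*) to 0.90 (*Stub1*), and replicate 1 was higher in 60 of 78.

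The 2 other genes that passed downwards from D6 to D13 are partners of the same machinery. *Dnaja1*, a J-domain protein of HSP70, was at 8.51 and 8.18 log2 CPM (D0), 7.77 and 7.83 (D6) and 6.92 and 6.74 (D13) (D6 to D13, log2 fold change -0.97 ± 0.21, limma adjusted p = 0.043). *Chordc1*, which binds HSP90, was at 7.25 and 6.88, 7.05 and 6.95, and 6.08 and 5.76 (-1.09 ± 0.23, limma adjusted p = 0.037). Like *Dnajb1* and *Hspa8*, both had their D13 libraries below the other four. *Sil1*, the exchange factor of the endoplasmic reticulum HSP70, passed upwards (1.58 ± 0.36, limma adjusted p = 0.046). Over the whole course from D0 to D13, which includes this step, *Sil1* rose by 2.66 ± 0.36 (limma adjusted p = 0.00060).

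Small heat shock protein genes held the largest changes among the other chaperones from D0 to D6. *Hspb8*, which works with *Bag3* in selective autophagy, was at 3.89 and 4.68 log2 CPM (D0), 7.11 and 7.19 (D6) and 7.45 and 7.24 (D13) (D0 to D6, 2.87 ± 0.28, limma adjusted p = 0.00018). *Bag3* itself rose by 0.77 ± 0.23 (limma adjusted p = 0.039). *Hspb7* had 2 and 4 reads (D0), 141 and 196 (D6) and 115 and 100 (D13), so its low starting level makes a fitted fold depend on the offset. *Hspa4l*, an HSP110 relative of *Hsph1*, fell by 1.97 on the log2 scale (SE 0.32, limma adjusted p = 0.0025), from 3.65 and 3.51 to 1.74 and 1.49.

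Among the 5 measured heat shock factors and regulators other than *Hsf1*, 4 passed upwards and 1 downwards from D0 to D13. Of all rows, 20.6% passed upwards and 21.5% downwards, and 5 genes are few for a comparison of shares. *Hsf3* had 9 and 37 reads (D0), 346 and 218 (D6) and 218 and 174 (D13). *Hsf5* was at 1.65 and 0.43 log2 CPM (D0), 0.99 and 1.08 (D6) and 3.30 and 3.39 (D13) (D6 to D13, 2.31 ± 0.44, limma adjusted p = 0.030). *Hsf2bp* rose by 1.87 from D0 to D13 (limma adjusted p = 0.0013), and *Hsbp1*, which encodes a binding protein of heat shock factors, by 0.72 (limma adjusted p = 0.029). *Hsf2*, named after its values were seen, fell by 0.74 (limma adjusted p = 0.026).

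Of 22 further genes listed as heat-inducible, 16 of which are also in another list, 2 passed upwards and 2 downwards from D6 to D13. Of all rows, 1.39% passed upwards and 2.78% downwards. Among 24 endoplasmic reticulum stress genes, 12 were higher in D13 replicate 1, with a median of 0.09. *Hspa5*, the HSP70 of that compartment, was at 9.80 and 8.51 (D0), 8.70 and 9.06 (D6) and 8.37 and 7.89 (D13). All 20 proteasome genes were higher in replicate 1 at D13, with a median of 0.44, and at D0, with a median of 0.62. Of 10 mitochondrial proteostasis genes 9 were higher in D13 replicate 1, with a median of 0.16. Thus higher values in D13 replicate 1 at the size seen for most members also occurred in lists outside the chaperones.

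In the lists of other stress responses, D13 differences went both ways. *Chac1*, an endoplasmic reticulum stress gene, was lower in replicate 1 by -2.08 (-0.22 and 1.86 log2 CPM). Its D0 replicates differed more, by -4.98 (0.79 and 5.77), as did those of *Ddit3* (-4.85) and *Trib3* (-3.89). Of the 24 endoplasmic reticulum stress genes, 8 differed by more than 2-fold at D0 and 2 at D13, where 10.2% and 7.77% of all genes did. At D0, 15 of the 24 were higher in replicate 1, by at most 1.29 (*Hspa5*). The largest D0 differences, those of *Chac1*, *Ddit3* and *Trib3*, went the other way, with higher values in replicate 2. Among 12 oxidative and metal stress genes the largest D13 difference was that of *Sod1* (0.72), and *Mt1* was at 8.76 and 8.30. Among 14 immediate-early genes 8 were higher in D13 replicate 1. *Jund* differed by 1.19, *Ier2* by 0.87 and *Jun* by 0.46, while *Btg2* differed by -0.91. *Jun* rose from D6 to D13 by 1.69 (limma adjusted p = 0.029) after falling by 2.93 between D0 and D6 (adjusted p = 0.00028 in limma). Among 15 p53 targets 5 were higher in D13 replicate 1, *Bax* by 0.76, while *Trp53inp1* (-1.03) and *Zmat3* (-0.82) were lower. B2 SINEs are transposons whose RNA heat shock is known to induce. Of 3 B2 families, B2_Mm1a and B2_Mm1t fell from D6 to D13 and B2_Mm2 did not pass. B2_Mm1a was at 9.17 and 7.93 log2 CPM (D0), 8.81 and 9.19 (D6) and 7.31 and 7.08 (D13) (D6 to D13, -1.81 ± 0.37, limma adjusted p = 0.036). Its D13 replicates differed by 0.23. Over the same days the change was -1.81 ± 0.35 for B2_Mm1t (limma adjusted p = 0.031) and -0.32 ± 0.22 for B2_Mm2 (limma adjusted p = 0.41), on the log2 scale.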

How the data were processed

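RNA-seq of J1 ES cells was analysed at D0, D6 and D13, with 2 replicates per day. Libraries were made with a stranded mRNA kit. The authors mapped paired-end reads of 100 bases onto mm10 with TopHat2 2.0.6 and counted them per RefSeq gene with HTSeq 0.6.1. Reads for transposon families were mapped separately with Bowtie 1.0.0. The deposited values are log2 CPM, after TMM and voom by the authors. They contain an offset of 0.5 reads, and undoing it gave whole reads (tolerance 0.02) for 100% of values.

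The 12928 rows were compared with limma 3.58.1 in R 4.3.3 on the deposited log2 values: 1 mean per day, a mean-variance trend, all 6 libraries, two-sided moderated tests and Benjamini-Hochberg adjustment. Fold changes are differences of mean log2 CPM. The limma script was tested on simulated data. edgeR was not used, because the deposited unit is log2. Gene positions, lengths and GC content came from GENCODE vM21 (GRCm38, the same build as mm10) and promoters from RefSeq. Deposited names lack every capital G; rows with a cut, shared or lower-case name were tested but not named.

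The members and lists were chosen with earlier results of these data known. Named genes were all members, up to 3 per list by D13 replicate difference and by smallest adjusted p (at least 50 reads in 1 library), the 10 largest D13 replicate differences in each direction, and the 10 genes most correlated with the members' mean pattern (at least 50 reads in every library and a range of at least 1 log2 unit). Exceptions are stated. Alternatives were a read filter, 2 days alone, a replicate block, each library left out, a 2-fold minimum, an adjusted p of 0.01, voom weights, no trend, median centring and adjustment over genes only, and, added after seeing the data, centring by length or GC content. Counting error alone understates the error between cultures, and the sources used here do not say how the biological replicates were separated. A gene of the heat-inducible list is not reported here by name.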

Additional observations from a re-analysis of the deposited data

How the results depend on the processing

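Of 87 alternative member counts, 58 were within 1.5 times the value given. The counts called at 4-fold (D0 to D6, D6 to D13, D0 to D13: 0, 1 and 1 of 10) became 1, 1 and 1 with 2 days alone, 1, 2 and 1 with the replicate block, 0, 2 and 3 with a 2-fold minimum, 0, 0 and 0 at an adjusted p under 0.01, and 0, 1 and 0 with voom weights and without the trend. The counts past the adjusted p (0, 2 and 4) became 3, 3 and 4 with 2 days alone, 2, 4 and 4 with the block, 0, 0 and 2 at 0.01, and 0, 2 and 3 with voom weights and without the trend. Leaving out 1 library at a time gave 0 to 1, 0 to 2 and 0 to 1 called and 0 to 3, 0 to 3 and 2 to 5 past. A lone library is then assumed to vary like the others. Over all rows, deviations of same-numbered libraries correlated by -0.06 (D0 and D6), 0.24 (D6 and D13) and 0.12 (D0 and D13). Over genes alone these were -0.13, 0.33 and 0.14, and over transposon families 0.54, 0.10 and 0.22. With 2 libraries per day, such correlations cannot decide whether the replicate numbers pair the libraries. A read filter changed nothing. With 1 library left out, the sign of some changes that had not passed turned. These were *Hspa8* (-0.36 to 0.54 from D0 to D6), *Hspe1* (-0.34 to 0.31) and *Hspd1* (-0.42 to 0.73, and -0.65 to 0.51 from D0 to D13), each lowest and highest without a D0 library. From D6 to D13 they were *Hspb1* (-0.55 to 0.37), *Hsp90aa1* (-0.043 to 0.10) and *Hsf1* (-0.10 to 0.013), each lowest and highest without a D13 library. From D0 to D13 the change of *Hspb1* was 1.12 without D13 replicate 2, and that of *Hspa1b* ranged from -0.48 to 1.90, without D13 replicate 1 and 2. The D13 replicate differences of *Hspa1a* and *Hspa1b* kept their sign and were 2.13 to 2.69 after centring by length or GC content. Without TMM those of *Dnajb1* and *Hspd1* became -0.033 and -0.054. After centring by GC content they became -0.0015 for *Dnajb1* and -0.13 for *Hsf1*, and after centring by length -0.10 for *Hspd1* and -0.14 for *Hsf1*. The cause of these shifts was not tested. Depth limits *Hspa1a* at D6 most, with 38 and 61 reads.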
